A study of Mus musculus with 12 samples.

Results

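Aminoacyl-tRNA synthetases are the enzymes that join each amino acid to its transfer RNA (tRNA), and 34 mouse genes encoding them were followed in resting B cells stimulated through CD86, CD40 and Toll-like receptor 2 (TLR-2). The 34 were taken by name, and all 34 were found by their gene symbol among the 50090 symbols of the array. Of these, 20 encode enzymes of the cytosol and 14, whose names end in 2, encode enzymes of mitochondria. Resting B (RB) cells came from spleens of BALB/c mice by removal of CD43-bearing cells, and the sample descriptions give female mice of 6 weeks and 4 h of culture, while the methods of the study speak of male or female mice. There were 6 conditions of 2 arrays each, 12 arrays in all. Cells were left unstimulated, or received Pam2CSK4 (a synthetic lipopeptide ligand of TLR-2), an anti-CD86 antibody, anti-CD86 with Pam2CSK4 (TLR2.CD86), an anti-CD40 antibody, or anti-CD40 with Pam2CSK4 (TLR2.CD40). No cell carried an engineered allele, and the study's antibody isotype control was not analysed here. Nothing in the descriptions ties an array to an animal. The p-values below therefore measure only the spread between the 2 arrays of a condition, pooled over the 6 conditions, and this spread may be technical.

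Most synthetases recognise 1 amino acid and its tRNAs, while Eprs serves both glutamate and proline. They use ATP to activate the amino acid before transfer, so the family sets the supply of charged tRNA for translation. In the cytosol of animal cells several of these enzymes (for aspartate, glutamate and proline, isoleucine, lysine, leucine, methionine, glutamine and arginine) sit together in the multi-synthetase complex on the scaffold proteins Aimp1, Aimp2 and Eef1e1, whereas the others work as free enzymes. Mitochondria use their own set, encoded in the nucleus and imported, although Gars and Kars supply both compartments. Uncharged tRNA activates the kinase Gcn2 and raises translation of the transcription factor Atf4, which is known to act on amino acid synthesis genes and on many cytosolic synthetase genes through a C/EBP-ATF composite element. Lymphocytes that leave quiescence are known to enlarge and raise their protein synthesis.

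The promoters that hold that element are shown because they mark which members carry the best known regulatory letters of this family. RefSeq promoters (GRCm38.p6, 250 bases before to 50 after each gene's start) were matched for 26 of the 34 members, 13 cytosolic and 13 mitochondrial. The names not matched were Cars, Hars, Lars, Nars, Rars, Vars, Wars and Pars2. The letters TGATGNAA, searched on both strands, were found in 5 of the 13 cytosolic promoters (38.5%), in 0 of the 13 mitochondrial promoters, and in 3.97% of all 32851 promoters of the table. In the stretches printed here, read 5′ to 3′ on the strand of the gene, capitals mark matches to TGATGNAA or its reverse complement and to the E-box CACGTG; the 2 motifs do not overlap in any of them. The stretches are Aars, chr8:111033656-111033871 on the + strand; Gars, chr6:55037931-55038018 on the + strand; Iars, chr13:49682021-49682159 on the + strand; Tars, chr15:11399629-11399713 on the - strand; and Yars, chr4:129189866-129189932 on the + strand.
Aars: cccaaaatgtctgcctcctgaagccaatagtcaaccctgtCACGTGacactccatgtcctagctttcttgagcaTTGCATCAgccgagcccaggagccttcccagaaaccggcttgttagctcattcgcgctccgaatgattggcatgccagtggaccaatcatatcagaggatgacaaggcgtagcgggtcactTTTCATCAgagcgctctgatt
Gars: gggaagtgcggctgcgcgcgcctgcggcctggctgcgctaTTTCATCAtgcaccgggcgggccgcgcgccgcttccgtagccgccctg
Iars: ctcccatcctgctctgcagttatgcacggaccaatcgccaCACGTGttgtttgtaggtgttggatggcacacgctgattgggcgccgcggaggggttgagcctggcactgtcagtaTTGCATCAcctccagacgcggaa
Tars: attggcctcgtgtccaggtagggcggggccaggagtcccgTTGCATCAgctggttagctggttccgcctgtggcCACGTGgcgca
Yars: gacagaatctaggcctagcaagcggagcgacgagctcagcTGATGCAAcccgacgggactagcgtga

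Aars held the composite letters at 2 places, bases -112 to -105 and 10 to 17 counted from the gene's start. Gars held them at -30 to -23, Iars at 8 to 15, Tars at -15 to -8 and Yars at 4 to 11. All but the match of Yars lay on the reverse strand. The E-box letters, which read the same on both strands, lay in 5 of the 26 promoters (Aars, Farsb, Iars, Tars and Ears2, 19.2%) against 7.15% of all promoters. A match is a description of the letters and was not tested as a binding site.

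**Figure D1:**
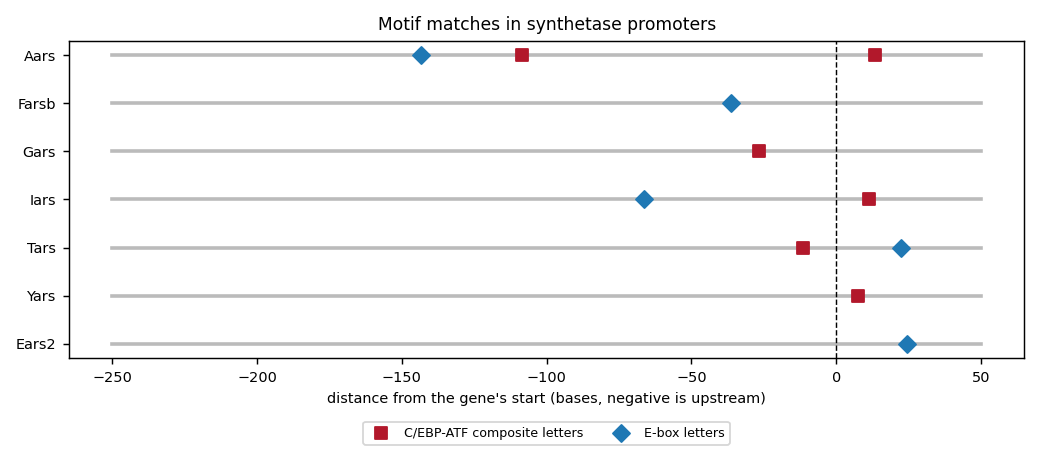
Positions of C/EBP-ATF composite letters (squares) and E-box letters (diamonds) in the promoters of the 7 synthetase genes that hold either, along the distance in bases from the gene's start. Composite letters occur in 5 cytosolic members, in Aars at 2 places, and Ears2 is the only mitochondrial member with an E-box.

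Levels are log2 intensities minus the array's own 75th percentile, so 0 is the brightness of that percentile, and each gene was read by its brightest probe. The brightest probe was well above background on all 12 arrays for each of the 34 members. The sole probe of Lars2, the mitochondrial leucine enzyme, was saturated on all 12 arrays (levels 7.39 to 8.12), and the accessions listed for it name both Lars2 and the large-subunit ribosomal RNA gene Rn28s1. Lars2 was therefore given no fold change, which left 33 members with a measured change, 20 cytosolic and 13 mitochondrial. Of the 61307 probes of the array, 31599 were tested. All 8 B cell markers were well above background in every condition; Cd79b and Blnk were saturated on all 12 arrays, and the unsaturated Ms4a1 read 6.47 to 7.18.

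The arrays lay on 2 slides, and most synthetases differed between them. Slide 1 held 8 arrays, among them both unstimulated and both TLR2.CD40 arrays, and slide 2 held the second array of each of the other 4 conditions. In those 4 conditions slide and sample number coincide, so a difference between slides and one between samples cannot be told apart. Of the 33 members, 24 differed between slides and all 24 were lower on slide 2, with a median difference of -0.26 on the log2 scale, beside 57.2% of all probes and a median of -0.13. Eprs (glutamate and proline) read 1.83 and 1.34 on the 2 Pam2CSK4 arrays, 1.76 and 1.14 on the 2 TLR2.CD86 arrays, but 1.92 and 1.94 on the 2 unstimulated arrays of slide 1. Each comparison below is therefore given without the slide, as the study's methods state no covariate, and with the slide as a term of the model. Comparisons of TLR2.CD40 with unstimulated cells lay wholly within slide 1, and slide 2 has no unstimulated array. Values from slide 1 alone are also given where they bear on a result; there Pam2CSK4, anti-CD86, TLR2.CD86 and anti-CD40 have 1 array each, whose spread is taken from the unstimulated and TLR2.CD40 arrays.

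Across the 6 conditions the test of any difference called 2 of 33 members, Dars and Tars (8 at unadjusted p under 0.05), beside 20.1% of all probes. A slide term raised this to 24 of 33 members, beside 59.9% of all probes.

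Stimulation with TLR2.CD40 was the condition in which most members were called against unstimulated cells, as it was for all probes. Kars (lysine), Iars (isoleucine) and Tars (threonine) rose and Dars (aspartate) fell, while 29 of 33 members did not pass the test. The share was 4 of 33 members, 3 higher and 1 lower, beside 18.2% of all probes (8.52% higher and 9.65% lower), and 8 members had an unadjusted p under 0.05. The median log2 fold change was 0.23 over the cytosolic members and 0.14 over the mitochondrial ones, beside 0.01 over all probes tested. Because these are bulk RNA samples, a change in the share of a cell type and a change of RNA per cell cannot be told apart.

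Kars read 2.81 and 2.77 in unstimulated cells and 3.56 and 3.43 in TLR2.CD40 cells. The TLR2.CD40 arrays were above every other array of Kars, where the next was 3.18 with anti-CD40. Its rise was 0.71 (SE 0.15, adjusted p = 0.0169), a 1.63-fold difference.

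Iars read 2.37 and 2.39 in unstimulated cells, 3.03 and 2.69 with anti-CD40, and 2.96 and 2.95 with TLR2.CD40. The anti-CD40 and TLR2.CD40 arrays overlapped each other, and all 4 were above the other 8 arrays. The rise with TLR2.CD40 was 0.58 (SE 0.16, adjusted p = 0.0449). With anti-CD40 alone the difference was 0.48 (SE 0.16, adjusted p = 0.082), which became 0.61 (SE 0.069, adjusted p = 0.00114) with the slide term and 0.65 (adjusted p = 0.0238) with the single anti-CD40 array of slide 1.

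Tars read 4.04 and 4.06 in unstimulated cells, 4.61 and 4.31 with anti-CD40, and 4.58 and 4.49 with TLR2.CD40. Here too the 4 arrays that received anti-CD40 lay above the other 8. The rise with TLR2.CD40 was 0.49 (SE 0.14, adjusted p = 0.0491). The difference with anti-CD40 alone was 0.41 (SE 0.14, adjusted p = 0.0835), and 0.51 (SE 0.063, adjusted p = 0.00152) with the slide term. Both Iars and Tars are among the promoters printed above that hold the composite and the E-box letters, as is Aars, whose brightest probe read 3.96 and 3.91 in unstimulated cells and 3.70 and 3.68 with TLR2.CD40.

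Dars went the other way and was the member with the lowest fold change against unstimulated cells in TLR2.CD86 and in TLR2.CD40. It read 1.54 and 1.45 in unstimulated cells, above all other 10 arrays, 1.16 and 1.00 with Pam2CSK4, and 0.89 and 0.97 with anti-CD86. It read 0.73 and 0.51 with TLR2.CD86, 1.28 and 1.23 with anti-CD40, and 1.01 and 1.03 with TLR2.CD40. Dars fell by 0.87 on the log2 scale with TLR2.CD86 (SE 0.12, adjusted p = 0.0107, a 1.83-fold difference). It fell by 0.48 with TLR2.CD40 (SE 0.12, adjusted p = 0.0266). Dars encodes the aspartate enzyme of the multi-synthetase complex, in which Iars and Kars also sit.

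**Figure D2:**
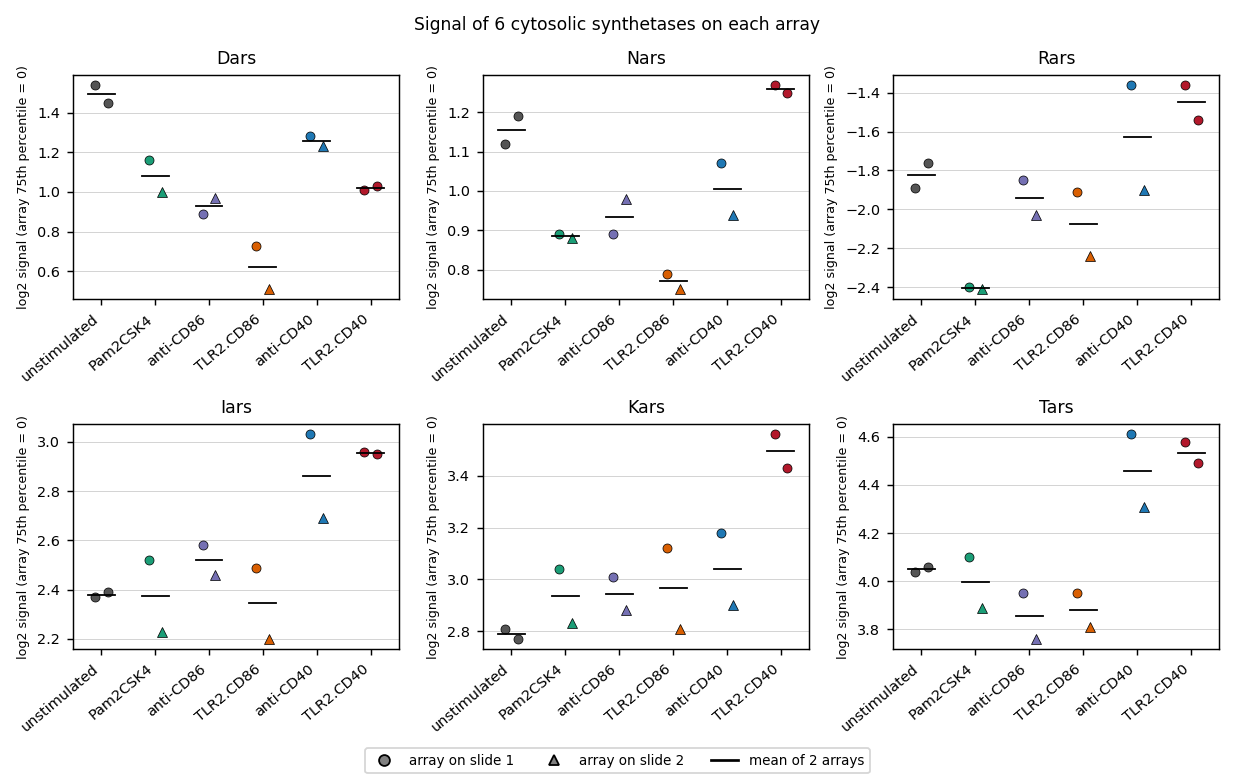
log2 signal relative to the array's 75th percentile (vertical axis) of Dars, Nars, Rars, Iars, Kars and Tars on each of the 12 arrays, by condition; circles are arrays on slide 1, triangles arrays on slide 2 and lines the mean of 2 arrays. Unstimulated arrays are highest for Dars, TLR2.CD40 arrays are highest for Kars, and the arrays with anti-CD40 are highest for Iars and Tars.

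When the slide was a term, TLR2.CD40 changed 16 of 33 members, 12 higher and 4 lower, beside 23.7% of all probes higher and 23.7% lower. The fold changes themselves did not move, since all 4 arrays lie on slide 1, and it was the standard errors that were smaller. Within the multi-synthetase complex Kars, Iars, Mars (methionine, 0.40) and Lars (leucine, 0.23) rose and Dars and Qars (glutamine, -0.28) fell, which is 6 of its 8 members. Of the 12 other cytosolic members, Yars (tyrosine, 0.57), Tars, Hars (histidine, 0.47), Cars (cysteine, 0.33) and Farsa (the alpha subunit of the phenylalanine enzyme, 0.31) rose. Aars (alanine, -0.24) and Sars (serine, -0.18) fell. Of the 13 mitochondrial members Pars2 (proline, 0.45), Wars2 (tryptophan, 0.39) and Ears2 (glutamate, 0.30) rose. A fit of the slide 1 arrays alone likewise called 16 of 33, beside 40.3% of all probes; Nars2 (asparagine, -0.38) was called there and Sars was not. In the complex 5 of 8 fold changes were positive, and among the other cytosolic members 9 of 12.

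The TLR2.CD40 calls rest on few arrays. Without the slide term, leaving out either unstimulated array or either TLR2.CD40 array left 0 of 33 members called, while the fold changes of the 4 called members stayed between 0.57 and 0.59 for Iars, 0.64 and 0.77 for Kars, 0.44 and 0.53 for Tars, and -0.52 and -0.43 for Dars over all 12 omissions. Without either anti-CD86 array Dars and Kars were called. A list of 5 liver transcripts also moved with this condition. Alb, the main liver plasma protein, read 2.20 and 2.16 in unstimulated cells, 1.25 to 1.79 with the other stimuli, and -2.47 and -3.47 with TLR2.CD40. Of the list, 4 of 5 were well above background on both arrays in every other condition and 1 of 5 with TLR2.CD40; its summed linear signal was 11.5 to 11.8 in unstimulated cells, 5.41 to 8.32 with the other stimuli and 0.545 to 0.681 with TLR2.CD40 (75th percentile = 1), and Ttr was not well above background on any array. The part of these transcripts in the synthetase values was not tested. Summed myeloid markers, 5 of 5 above background throughout, were 94.6 to 99.3 in unstimulated cells and 79.2 to 97.5 with Pam2CSK4. They were 55.7 to 72.2 with anti-CD86, 54.5 to 68.5 with TLR2.CD86, 46.5 to 58.7 with anti-CD40 and 68.8 to 77.4 with TLR2.CD40. This linear sum is mostly Cst3, at log2 levels of 6.47 and 6.39 in unstimulated cells, beside 3.01 on both arrays for Cd14, the next brightest. The part of the myeloid markers in the results of any condition was not tested.

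TLR2.CD86, the combination the study set out to examine, lowered 2 cytosolic members and raised none. These were Dars, above, and Nars, the asparagine enzyme, and 31 of 33 members did not pass the test. The count was 2 of 33, beside 10.6% of all probes and 7.23% for probes that were lower, and 8 members had an unadjusted p under 0.05. Nars read 1.12 and 1.19 in unstimulated cells and 0.79 and 0.75 with TLR2.CD86. It fell by 0.39 on the log2 scale (SE 0.10, adjusted p = 0.0497). The 2 TLR2.CD86 arrays were the lowest of the 12 for both genes. The summed myeloid signal was lower as well, at 54.5 to 68.5 against 94.6 to 99.3 in unstimulated cells, but its markers did not move together. Cst3, which makes up most of the sum, read 6.47 and 6.39 in unstimulated cells and 5.83 and 5.51 with TLR2.CD86. Csf1r and Itgam were also lower, but Lyz2 was higher (0.61 and 0.56 against 1.12 and 0.74). Cd14 read 3.01 on both unstimulated arrays and 3.16 and 2.75 with TLR2.CD86. The part of these markers in the synthetase values was not tested.

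The median log2 fold change with TLR2.CD86 was -0.10 over cytosolic and -0.11 over mitochondrial members, beside -0.029 over all probes. After adding the slide these medians were 0.026 and 0.073, so their sign turned. With that term TLR2.CD86 changed 14 of 33 members, 8 higher and 6 lower, beside 14.5% of all probes higher and 20.4% lower. Pars2 (0.63), Fars2 (mitochondrial phenylalanine, 0.41), Mars (0.36), Yars (0.36), Hars (0.30), Cars (0.29), Kars (0.29) and Farsb (the beta subunit of the phenylalanine enzyme, 0.26) rose. Dars (-0.83), Nars (-0.37), Yars2 (mitochondrial tyrosine, -0.31), Wars (tryptophan, -0.30), Lars (-0.27) and Sars (-0.23) fell. Within slide 1, where TLR2.CD86 has 1 array, 5 members were called, Cars, Dars, Nars, Yars and Pars2, beside 20.1% of all probes. Dars lost its call without either unstimulated array or without the second TLR2.CD86 array, and its values over the 12 omissions ranged from -0.98 to -0.77. Nars kept its call only when an anti-CD40 array was left out, with values of -0.42 to -0.35.

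The single stimuli changed no member by the test without the slide term. Pam2CSK4 gave 0 of 33 (4 at unadjusted p under 0.05), beside 0.136% of all probes. Anti-CD86 gave 0 of 33 (7 unadjusted), beside 2.14%, and anti-CD40 gave 0 of 33 (7 unadjusted), beside 16.7%. Each of these conditions, like TLR2.CD86, has 1 array on either slide. The fit used 1 spread per probe for all conditions, so the difference between slides enters the spread of every comparison.

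In the model with the slide, Pam2CSK4 raised Yars (0.33, adjusted p = 0.0294) and lowered Dars (-0.37, adjusted p = 0.0438), 1 member each way beside 4.66% of all probes higher and 6.15% lower. Yars read 0.82 and 0.75 in unstimulated cells, 1.08 and 0.85 with Pam2CSK4, 1.31 and 1.08 with anti-CD86, 1.19 and 0.81 with TLR2.CD86, 1.08 and 0.76 with anti-CD40, and 1.33 and 1.38 with TLR2.CD40. On slide 1 every stimulated array read above both unstimulated arrays, and the 2 TLR2.CD40 arrays were the highest. No member was called for Pam2CSK4 within slide 1 (0.00% of all probes).

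Anti-CD86 with the slide term changed 14 of 33 members, 12 higher and 2 lower, beside 12.9% of all probes higher and 15.4% lower. Pars2 (0.63), Yars (0.56), Gars (glycine, 0.49), Mars (0.45), Hars (0.36) and Cars (0.35) rose most, followed by Wars2 (0.32), Farsb (0.29), Iars (0.27), Kars (0.27), Ears2 (0.24) and Farsa (0.22). Dars (-0.53) and Wars (-0.29) fell. Gars read -0.82 and -1.03 in unstimulated cells and -0.44 and -0.49 with anti-CD86, which were its 2 highest arrays. Within slide 1, where anti-CD86 has 1 array, 0 of 33 members passed for anti-CD86 (17 at unadjusted p under 0.05), beside 0.0127% of all probes.

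Anti-CD40 with the slide term changed 13 of 33 members, 7 higher and 6 lower, beside 15.7% of all probes higher and 21.4% lower. Iars (0.61), Tars (0.51), Pars2 (0.42), Kars (0.36), Hars (0.29), Yars (0.29) and Mars (0.28) rose. Mars2 (mitochondrial methionine, -0.60), Sars (-0.33), Tars2 (mitochondrial threonine, -0.32), Qars (-0.29), Aars (-0.23) and Vars (valine, -0.22) fell. Tars and Tars2, the cytosolic and mitochondrial enzymes for the same amino acid, thus changed in opposite directions in this fit. Neither of them passed without the slide term (0.41 and -0.51), and neither did Mars2 (-0.80, SE 0.27, adjusted p = 0.0766), which was -1.20 and called without the first anti-CD40 array but -0.39 and not called without the second. Tars2 read 3.52 and 3.42 in unstimulated cells and 3.17 and 2.75 with anti-CD40. Within slide 1, where anti-CD40 has 1 array, the fit called 4 members, Hars (0.34), Iars (0.65) and Tars (0.56) higher and Nars2 (-0.50) lower, beside 22.9% of all probes.

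The median over the 13 mitochondrial members was -0.27 with anti-CD40 (-0.17 with the slide term), whereas that over the 20 cytosolic members was 0.014 (0.14 with the slide term), beside -0.015 over all probes (0.0038 with the slide term). Scaling arrays to their median in place of the 75th percentile moved the median of all probes by -0.57 with anti-CD40, -0.29 with TLR2.CD86, -0.19 with Pam2CSK4, -0.14 with anti-CD86 and -0.11 with TLR2.CD40. Under that scaling the cytosolic median was -0.55 with anti-CD40 and 0.12 with TLR2.CD40, and the mitochondrial medians were -0.84 and 0.029, while those over all probes were -0.58 and -0.10. The median probe of an array had an intensity of 17.3 to 51.3, and the dimmest well above background 19.5 to 32.9.

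**Figure D3:**
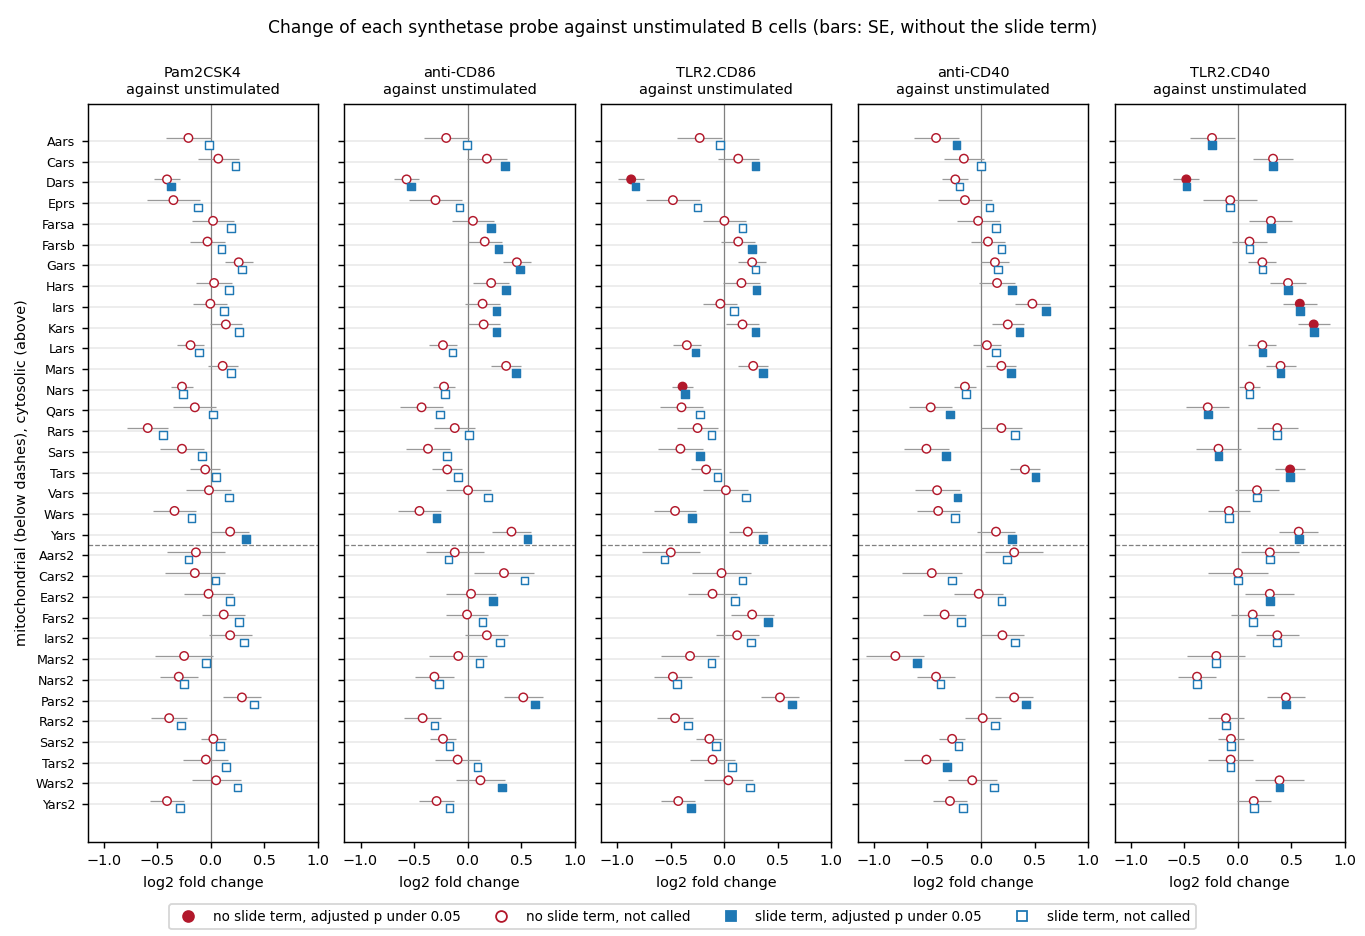
log2 fold change of each of the 33 synthetases against unstimulated cells in the 5 stimulated conditions, without the slide term (circles, bars show the SE) and with it (squares); filled symbols passed the test, and mitochondrial members are below the dashes. Kars has the highest circle with TLR2.CD40 (0.71) and Dars the lowest with TLR2.CD86 (-0.87), and the median of the mitochondrial members is lowest with anti-CD40 (-0.27).

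Comparisons among the stimulated conditions asked what the second signal added. Adding anti-CD40 to Pam2CSK4 raised 1 member, Rars, the arginine enzyme, by 0.96 (SE 0.19, adjusted p = 0.0205), a 1.94-fold difference. Rars read -1.89 and -1.76 in unstimulated cells, -2.40 and -2.41 with Pam2CSK4, and -1.36 and -1.54 with TLR2.CD40. The 2 Pam2CSK4 arrays were its lowest, although Pam2CSK4 against unstimulated cells did not pass (-0.59, SE 0.19, adjusted p = 0.24). The count was 1 of 33 (8 at unadjusted p under 0.05), beside 9.91% of all probes and 6.69% for higher probes. The Rars call was lost without either Pam2CSK4 array or either TLR2.CD40 array, when 0 of 33 were called; 6 were called without either anti-CD40 array and 2 without either TLR2.CD86 array, Rars among them. With the slide term it was 0.83 (SE 0.14, adjusted p = 0.00605), and 12 of 33 members were called, 9 higher and 3 lower, beside 31.4% of all probes.

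The 2 combinations differed in 4 members, all higher with TLR2.CD40 than with TLR2.CD86, beside 12.2% of all probes and 7.42% for higher probes (9 members at unadjusted p under 0.05). Tars was higher by 0.65 (SE 0.14, adjusted p = 0.0226), Iars by 0.61 (SE 0.16, adjusted p = 0.0474), Lars by 0.58 (SE 0.13, adjusted p = 0.026) and Nars by 0.49 (SE 0.10, adjusted p = 0.0189). Lars read 4.74 and 4.63 with TLR2.CD86 and 5.26 on both TLR2.CD40 arrays, its highest. Nars read 1.27 and 1.25 with TLR2.CD40, also its highest. With the slide term the 4 differences were 0.55, 0.48, 0.50 and 0.48, and 10 of 33 members were called, 9 higher and 1 lower, beside 34.5% of all probes. The difference was positive for 28 of 33 members, or 23 of 33 with the slide term, beside 53.2% and 53.7% of all probes. Without the slide term this direction held for 8 of 8 members of the multi-synthetase complex. It held for 9 of 12 other cytosolic members and for 11 of 13 mitochondrial ones. With the slide term these counts were 7 of 8, 8 of 12 and 8 of 13. Within slide 1 they were 7 of 8, 8 of 12 and 6 of 13, beside 51.7% of all probes. The medians with the slide term were 0.38, 0.092 and 0.062 in that order, beside 0.037 over all probes. Within slide 1 the medians were 0.33, 0.10 and -0.013, beside 0.018 over all probes. Leaving out either TLR2.CD40 array left 0 of 33 called. None of the 4 was called without either TLR2.CD86 array (without the first, Yars2 was called instead), and only Nars was called without either unstimulated array. Iars was not called without either Pam2CSK4 array or either anti-CD86 array, where the other 3 were. Without either anti-CD40 array 7 members were called, the 4 among them.

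Adding Pam2CSK4 to anti-CD40 gave 0 of 33 calls (7 at unadjusted p under 0.05), beside 2.90% of all probes. The fold change was positive for 30 of 33 members (55.1% of all probes), for 26 of 33 with the slide term (53.8%) and for 24 of 33 within slide 1 (54.7%); the second anti-CD40 array lies on slide 2, where the slide term was negative for 32 of 33 members. With the slide term 6 members rose, beside 15.0% of all probes called. These were Vars (0.41), Kars (0.34), Cars (0.33), Yars2 (0.32), Yars (0.29) and Tars2 (0.26). Vars read 2.76 and 2.31 with anti-CD40 and 3.12 and 3.13 with TLR2.CD40.

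Adding anti-CD86 to Pam2CSK4 gave 0 of 33 calls (1 unadjusted), beside 0.0633% of all probes, and Dars alone fell with the slide term (-0.46, SE 0.08, adjusted p = 0.0217), beside 10.7%. Adding Pam2CSK4 to anti-CD86 gave 0 of 33 (1 unadjusted), beside 0.225%, and 0 of 33 with the slide term (4 unadjusted). The interaction, which is the departure of a combination from the sum of its 2 single log2 effects, was called for 0 of 33 members with anti-CD86 and Pam2CSK4 (1 unadjusted, 0.0190% of all probes). With anti-CD40 and Pam2CSK4 it was called for 0 of 33 (4 unadjusted, 1.15% of all probes). Here 30 of 33 interaction values were positive (60.6% of all probes), but 21 of 33 with the slide term (57.0%) and 17 of 33 within slide 1 (56.8%). With the slide term it was called for 2 members, beside 8.41% of all probes, Nars (0.50, SE 0.10, adjusted p = 0.0383) and Yars2 (0.61, SE 0.12, adjusted p = 0.0346). These comparisons share arrays with each other and with those against unstimulated cells.

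Several genes have more than 1 probe, and the probes did not always move together. Of the 59 synthetase probes 56 were tested, and 20 probes besides the brightest of their gene were well above background on all 12 arrays. Without the slide term 6 of these 20 were called with TLR2.CD40, 4 with TLR2.CD86, 3 with anti-CD40, 2 with anti-CD86 and 0 with Pam2CSK4, beside 18.2%, 10.6%, 16.7%, 2.14% and 0.136% of all probes. The slide term gave 11, 12, 10, 13 and 5 of 20, beside 47.4%, 34.9%, 37.1%, 28.3% and 10.8%. A second probe of Iars read -2.53 and -2.85 in unstimulated cells and -1.63 and -1.72 with TLR2.CD40, a rise of 1.02 (SE 0.19, adjusted p = 0.00917). It rose as well with anti-CD40 (0.88, SE 0.19, adjusted p = 0.0214). The second probe of Dars fell by 0.59 with TLR2.CD86 (SE 0.13, adjusted p = 0.0325), while the third gave -0.27 (SE 0.20, adjusted p = 0.4). With TLR2.CD40 the second probe of Dars gave -0.10 (SE 0.13, adjusted p = 0.66) and the third fell by 0.73 (SE 0.20, adjusted p = 0.0404).

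For other genes the brightest probe was the one that showed less. Both other probes of Lars rose with TLR2.CD40, by 0.64 (SE 0.13, adjusted p = 0.0114) and 1.20 (SE 0.21, adjusted p = 0.00759), where the brightest gave 0.23 (SE 0.13, adjusted p = 0.267). Wars2, the mitochondrial tryptophan enzyme, read -1.36 and -1.46 by its second probe in unstimulated cells, -1.35 to -0.81 with the stimuli other than TLR2.CD40, and 0.057 and 0.043 with TLR2.CD40, a rise of 1.46 (SE 0.16, adjusted p = 0.000981) that its brightest probe gave as 0.39 (SE 0.23, adjusted p = 0.279). The third probe of Farsa read 0.022 and 0.028 in unstimulated cells and 1.62 and 1.28 with anti-CD40, a rise of 1.43 (SE 0.16, adjusted p = 0.00243), whereas its brightest probe gave -0.027. The second probe of Aars read -1.59 and -1.55 in unstimulated cells and -0.46 and -0.67 with anti-CD86, a rise of 1.00 (SE 0.17, adjusted p = 0.0359), against -0.20 by the brightest probe. For Tars the second probe gave 0.083 (SE 0.19, adjusted p = 0.821) with TLR2.CD40, so the rise of its brightest probe was not seen there. With anti-CD40 the second probe of Tars gave 0.44 (SE 0.19, adjusted p = 0.145), and 0.58 (SE 0.11, adjusted p = 0.00745) with the slide term. The transcripts that each probe of a gene detects were not compared here.

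**Figure D4:**
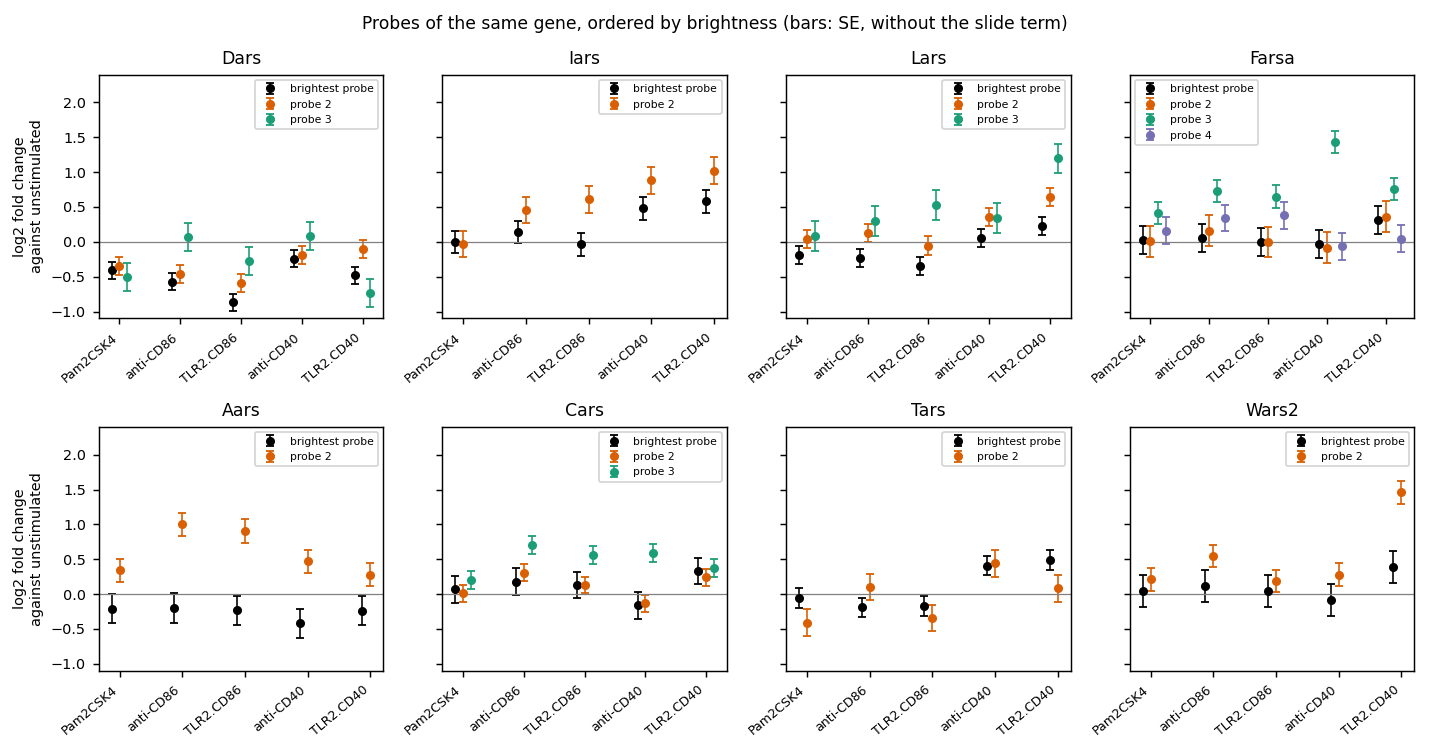
log2 fold change against unstimulated cells by each probe of Dars, Iars, Lars, Farsa, Aars, Cars, Tars and Wars2 in the 5 stimulated conditions, with the SE of the fit without the slide term as bars; black is the brightest probe. The probes lie apart for Farsa with anti-CD40, for Aars with anti-CD86, and for Lars and Wars2 with TLR2.CD40.

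Partners of the synthetases in aminoacylation were read as a list of 21 genes, of which 19 were tested (20 on the array, 1 saturated on all arrays). The same 4 genes, Eef1e1, Aimp2, Trnt1 and Xpot, rose with anti-CD40 and with TLR2.CD40. With TLR2.CD40 4 of 19 rose and 0 fell, and with anti-CD40 4 of 19 rose and 1 fell, while 0 of 19 passed with Pam2CSK4, anti-CD86 and TLR2.CD86. The shares of all probes called were 18.2% with TLR2.CD40, 16.7% with anti-CD40 and 10.6% with TLR2.CD86. Eef1e1, a scaffold of the multi-synthetase complex, read 3.37 and 3.39 in unstimulated cells, 4.31 and 3.96 with anti-CD40, and 4.63 and 4.62 with TLR2.CD40. It rose by 0.75 (SE 0.17, adjusted p = 0.0258) with anti-CD40 and by 1.24 (SE 0.17, adjusted p = 0.00284) with TLR2.CD40. The 4 arrays with anti-CD40 lay above the other 8.

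Aimp2, another scaffold of that complex, read -1.97 and -2.11 in unstimulated cells, -0.89 and -1.54 with anti-CD40, and -1.19 and -0.81 with TLR2.CD40, a rise of 1.05 (SE 0.24, adjusted p = 0.0197) in the combination. Aimp1, the remaining scaffold, read 5.04 and 5.01 in unstimulated cells and 4.81 and 4.73 with TLR2.CD40 (-0.25, SE 0.16, adjusted p = 0.304). Trnt1, which adds the CCA end to tRNA, rose by 0.82 with anti-CD40 and by 1.07 with TLR2.CD40 (SE 0.17 for each, adjusted p = 0.0183 and 0.00466). Xpot, the exporter of tRNA from the nucleus, rose by 0.58 and 0.51 (SE 0.11 for each, adjusted p = 0.0133 and 0.0146). Aarsd1, an alanyl-tRNA editing protein, fell by 0.69 with anti-CD40. The median of the list was -0.16 with anti-CD40 and -0.0085 with TLR2.CD40, beside -0.015 and 0.01 over all probes. With the slide term 3, 8, 7, 9 and 11 of 19 were called with Pam2CSK4, anti-CD86, TLR2.CD86, anti-CD40 and TLR2.CD40, beside 10.8%, 28.3%, 34.9%, 37.1% and 47.4% of all probes.

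Genes known to be induced through Atf4 were read as a list of 16. Asns, which makes asparagine from aspartate, read at most 3.07 in unstimulated cells, where both arrays were above all others, 2.20 and 1.97 with TLR2.CD86, and 2.46 and 2.50 with TLR2.CD40. It fell by 0.95 with TLR2.CD86 (SE 0.14, adjusted p = 0.0134) and by 0.55 with TLR2.CD40 (SE 0.14, adjusted p = 0.0334), and also with anti-CD86 and anti-CD40 (-0.85 and -0.67). Atf4 itself read 4.00 and 4.08 in unstimulated cells and 4.05 and 4.17 with TLR2.CD40 and passed in no condition. Psph, the last enzyme of serine synthesis, fell with TLR2.CD86 (-0.67), anti-CD40 (-0.49) and TLR2.CD40 (-0.56). Phgdh, the first enzyme of that path, fell with anti-CD40 (-0.81) and TLR2.CD40 (-0.67).

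Other genes of the list rose. Shmt2, the mitochondrial serine hydroxymethyltransferase, read 2.55 and 2.64 in unstimulated cells and 3.69 and 3.74 with TLR2.CD40, a rise of 1.12 (SE 0.21, adjusted p = 0.00887). Mthfd2, which acts after it in mitochondrial folate metabolism, rose by 0.69 (SE 0.15, adjusted p = 0.0153). Slc7a5, a transporter of large neutral amino acids, rose with anti-CD40 (0.57, SE 0.10, adjusted p = 0.0104) and fell with TLR2.CD86 (-0.49, SE 0.10, adjusted p = 0.0247). Ddit3, a transcription factor of the stress response, fell with anti-CD40 (-0.70). In all, 0 of 16 passed with Pam2CSK4, 1 with anti-CD86, 3 with TLR2.CD86, 5 with anti-CD40 and 5 with TLR2.CD40, of which 0, 0, 0, 1 and 2 were higher, beside 0.136%, 2.14%, 10.6%, 16.7% and 18.2% of all probes called. The medians of the list were -0.16, -0.32, -0.31, -0.40 and -0.37 in that order of conditions, and with the slide term 3, 6, 6, 9 and 9 genes were called, beside 10.8%, 28.3%, 34.9%, 37.1% and 47.4%.

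**Figure D5:**
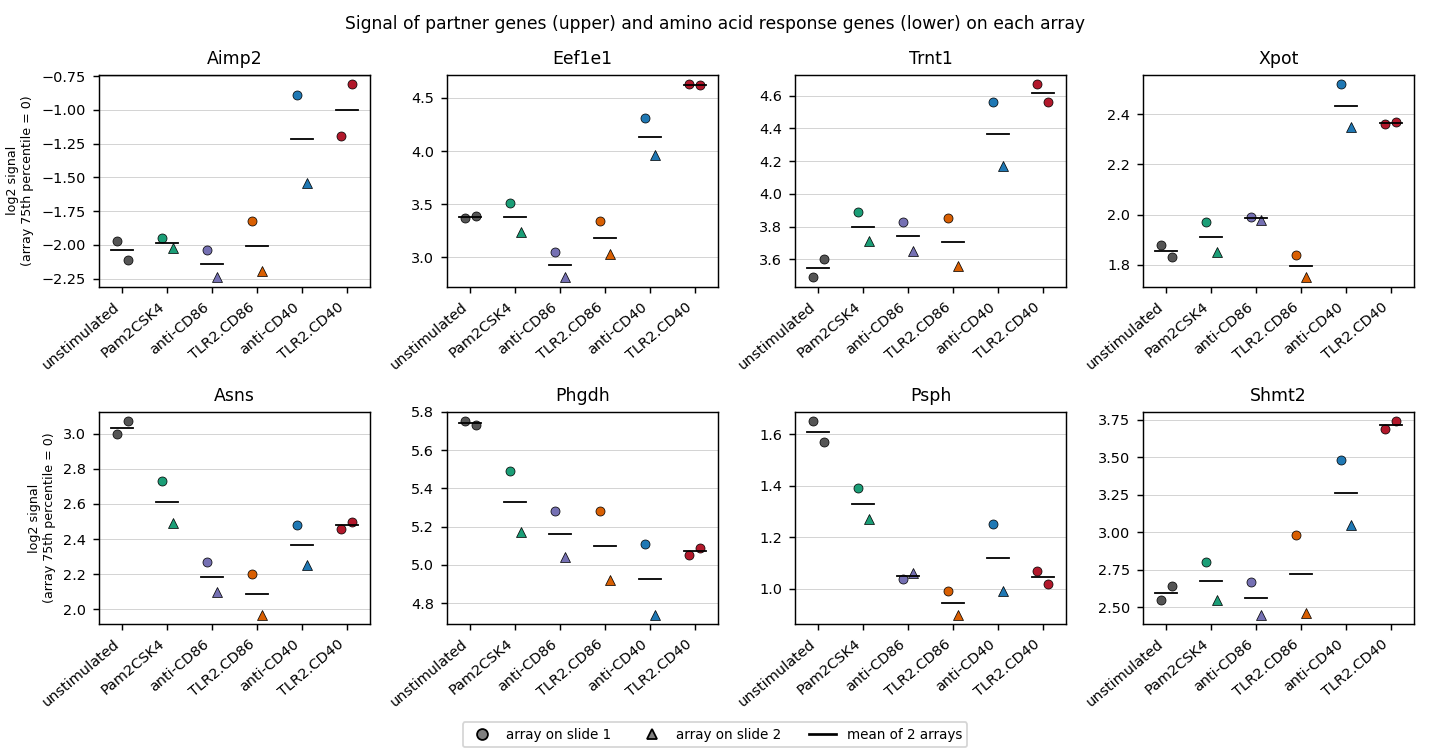
log2 signal relative to the array's 75th percentile (vertical axis) of Aimp2, Eef1e1, Trnt1 and Xpot (upper) and of Asns, Phgdh, Psph and Shmt2 (lower) on the 12 arrays, by condition; circles are slide 1, triangles slide 2 and lines the mean of 2 arrays. The upper genes are highest where anti-CD40 was given, and Asns, Phgdh and Psph are highest in unstimulated cells.

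The members other than Dars, Iars, Kars, Lars, Nars, Rars and Tars were called in no comparison of a pair of conditions without the slide term. Eprs and the mitochondrial Aars2, Cars2, Iars2, Nars2, Rars2 and Sars2 were called by their brightest probe in none with the slide term either. Other probes of Eprs passed with the slide term with anti-CD40 (0.24, adjusted p = 0.0378) and with TLR2.CD40 (0.37, adjusted p = 0.0223). The second probe of Iars2 passed with TLR2.CD86, anti-CD40 and TLR2.CD40 without the slide term (adjusted p = 0.0215, 0.0283 and 0.0267), but it was well above background on 3 of 12 arrays and on neither unstimulated array, so no fold is given. Among the 7 members Aars2 (alanine) read -2.89 and -2.34 on the 2 unstimulated arrays, a wide spread beside its difference with TLR2.CD40 (0.30, SE 0.27). Cars2 (cysteine) read -2.09 and -1.47 on the 2 TLR2.CD40 arrays, a spread wider than its difference from unstimulated cells (0.0023, SE 0.28). Iars2 (isoleucine) read 0.16 and 0.64 in unstimulated cells and 0.77 and 0.78 with TLR2.CD40 (0.37, SE 0.20, adjusted p = 0.227). Rars2 (arginine) read -0.51 and -0.75 in unstimulated cells and -0.73 and -0.75 with TLR2.CD40. It read lower with Pam2CSK4 (-0.87 and -1.18), anti-CD86 (-1.05 and -1.06) and TLR2.CD86 (-0.92 and -1.25). With the slide term the test of any difference among the conditions called Rars2 (adjusted p = 0.0355) and Sars2 (adjusted p = 0.0466). Sars2 (serine) ranged from -0.17 to 0.25 over the 12 arrays, and Sars, its cytosolic counterpart, from 4.48 to 5.21, with both unstimulated arrays at the upper end.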

How the data were processed

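RNA of 12 RB cell samples was hybridised in 1 colour (Cy3) to custom Agilent mouse arrays. The deposited scanner files hold processed signal intensity per spot, which the authors extracted with Feature Extraction 10.5.1.1 (background-subtracted) and analysed further in GeneSpring GX. A deposited series table of log2 values, used only as an alternative, differed from the log2 scanner signal by 1 offset per array; it is centred near each array's 75th percentile, with column medians of -3.94 to -2.80.

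Signals were taken to log2, less the array's 75th percentile; control and outlier spots were left out and spots of 1 probe averaged. A probe entered if in some condition both its arrays exceeded background clearly by the scanner's call (31669 probes, 70 of them with a missing value, so 31599 tested). limma 3.58.1 in R 4.3.3 fitted 1 coefficient per condition over 12 arrays, and p-values were adjusted by Benjamini-Hochberg over all tested probes; an adjusted p under 0.05 was called. Members were matched by array symbol and read by their brightest probe; all members could be named, with values array by array for those called against unstimulated cells or over all conditions. Genes of the 2 other lists were named where called. Marker lists were those of B, T, NK, myeloid, red and plasma cells, pancreas, liver, kidney and skeletal muscle. Members and lists were chosen with earlier results of these data known. Of the 2 promoter records of Aars2 the first was used. The fit was tested on simulated data. Tables were handled in Python 3.11.15.

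Alternatives were median or quantile scaling, normexp (offset 50), the deposited table, other filters on dim probes, the mean of a gene's probes, slide or replicate number as a block, the plain one-way test of the methods, and leaving out each array; the fit of slide 1 arrays only was chosen after seeing the data. Outlier spots numbered 5 to 35 per array, saturated spots 987 to 1206, and 46.6% to 60.6% of spots were well above background. Having 2 arrays per condition limits the precision. Over the other marker lists, summed linear signals were 8.94 to 13.9 (T), 6.51 to 10 (NK), 58.4 to 106 (red cell), 7.76 to 13.4 (plasma cell), 0.499 to 1.1 (pancreas, 7 of 9 on the array), 0.0634 to 0.287 (kidney) and 0.801 to 1.87 (skeletal muscle), relative to the 75th percentile.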

Additional observations from a re-analysis of the deposited data

Results flagged for a closer look

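For Nars and Yars2 the effect of Pam2CSK4 differed with and without anti-CD40 when the slide was a term of the model. The interaction was 0.50 on the log2 scale for Nars (adjusted p = 0.0383) and 0.61 for Yars2 (adjusted p = 0.0346), and without the slide term it was 0.52 (adjusted p = 0.143) and 0.84 (adjusted p = 0.134). Within slide 1 it was 0.45 (adjusted p = 0.147) and 0.60 (adjusted p = 0.107). Yars2, the mitochondrial tyrosine enzyme, read 0.86 and 0.83 in unstimulated cells, 0.53 and 0.35 with Pam2CSK4, 0.72 and 0.40 with anti-CD40, and 0.98 and 1.01 with TLR2.CD40, where both arrays were above all others.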

How the results depend on the processing

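Counts are members called of 33. Any difference among the 6 conditions gave 0 with median scaling, 6 with quantile scaling, 0 with no filter on dim probes, 5 with probes well above background on all 12 arrays, 1 with the mean of a gene's probes, 24 with the slide and 9 with the replicate block. Median scaling and no filter also gave 0 for TLR2.CD86 and TLR2.CD40 against unstimulated cells and for TLR2.CD40 against Pam2CSK4 and TLR2.CD86; the cause was not tested. Quantile scaling gave 1 with anti-CD86, 3 with anti-CD40, 8 with TLR2.CD40, 6 against Pam2CSK4 and 7 against TLR2.CD86. Normexp gave 1 with anti-CD86, 1 with anti-CD40 and 2 for TLR2.CD40 against Pam2CSK4. Probes above background on all arrays gave 1 with anti-CD86, 6 for TLR2.CD40 against Pam2CSK4 and 7 against TLR2.CD86; the mean of probes gave 1 with anti-CD40 and 4 for TLR2.CD40 against Pam2CSK4. The slide term gave 2 with Pam2CSK4, 14 with anti-CD86, 14 with TLR2.CD86, 13 with anti-CD40, 16 with TLR2.CD40, 1 for TLR2.CD86 against Pam2CSK4, 12, 6 and 10 for TLR2.CD40 against Pam2CSK4, anti-CD40 and TLR2.CD86, and 2 for the interaction with anti-CD40. Slide 1 arrays alone gave 16 with TLR2.CD40, and the other stimulated conditions have 1 array each there. For the members called among stimulated conditions without the slide term, the slide 1 values were as follows. Rars was 0.96 higher with TLR2.CD40 than with Pam2CSK4. Iars, Lars, Nars and Tars were 0.47, 0.52, 0.47 and 0.58 higher with TLR2.CD40 than with TLR2.CD86.

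The replicate block gave 1 with anti-CD86, 5 with TLR2.CD86, 6 with anti-CD40, 7, 2 and 8 for TLR2.CD40 against Pam2CSK4, anti-CD40 and TLR2.CD86, and 1 for the interaction with anti-CD40. Over the tested probes, the deviations of same-numbered arrays from their condition means correlated at -0.107 to 0.674. These correlations were over 0.5 only among the 4 conditions split between slides, in which same-numbered arrays also share a slide. Not every pair was over 0.1, so the numbers were not taken to pair the arrays.

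Leaving out each array gave 0 to 6 for any difference, 0 to 1 with anti-CD86, 0 to 2 with TLR2.CD86, 0 to 1 with anti-CD40, 0 to 5 with TLR2.CD40, 0 to 6 for TLR2.CD40 against Pam2CSK4 and 0 to 7 against TLR2.CD86. The count for any difference was 0 without either unstimulated or either TLR2.CD40 array, 1 without the second TLR2.CD86 array or either anti-CD86 array, and 5 and 6 without the first and the second anti-CD40 array. A condition left with 1 array was assumed to vary like the others. The 6 called differences from unstimulated cells kept their direction in 132 of 132 alternative values, but many of these could not turn. Other filters on dim probes, or leaving out an array of another condition, return the same fold change. The deposited table differs only by 1 offset per array. For TLR2.CD40 the slide term and the fit of slide 1 arrays also return the same fold change. All 6 kept their call with quantile scaling, the slide or the replicate block, and none did with median scaling or without either unstimulated array.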
